A study of Arabidopsis thaliana with 69 samples.

Results

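The mature microRNAs (miRNAs) numbered 770 to 870 are mostly young, lineage-restricted miRNAs of Arabidopsis thaliana. They were taken by number from the list of mature miRNAs quantified in small RNA sequencing (sRNA-seq) libraries, leaving out miR824, miR831, miR838, miR845, miR858 and miR866, which gave 90 of 427 mature miRNAs from 65 hairpin genes. All plants were of the Col-0 accession. The mutant group was dcl1-5 embryos at the globular stage, homozygous for a null allele of DICER-LIKE1 (DCL1), which for the transcriptome libraries were picked by abnormal shape from self-fertilized dcl1-5/+ plants. Wild-type embryos were taken at 8 stages, which were preglobular, globular, early and late heart, early and late torpedo, bent cotyledon and mature green, with 3 libraries per stage and a pool of embryos per library. Rosette and cauline leaves and floral buds gave 1 wild-type library each. Cleaved RNA ends were profiled by nanoPARE in 33 libraries, from 3 replicates each of the same embryo groups and of roots and shoots of xrn4-5 seedlings, which lack an exoribonuclease that degrades cleaved RNA.

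Plant miRNAs are cut from hairpin transcripts, usually by DCL1, as duplexes of a 5p and a 3p arm. The selected strand is loaded into an ARGONAUTE protein, most often as a species beginning with uridine, and directs cleavage of transcripts that pair with it closely. Hairpins of recent origin can resemble the gene they arose from, tend to be weakly expressed, and are sometimes processed by other Dicers into longer RNAs, and many have no known target.

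The sequences of the miRNAs with the highest embryo levels, or with the clearest contrast between groups, show how little these miRNAs share. They are RefSeq sequences on the TAIR10.1 assembly, 5′ to 3′, with the seed (bases 2 to 8) in capitals.
miR846-3p: uUGAAUUGaagugcuugaauu
miR846-5p: cAUUCAAGgacuucuauucag
miR842: uCAUGGUCagauccgucaucc
miR863-5p: uUAUGUCUuguugaucucaau
miR775: uUCGAUGUcuagcagugcca
miR843: uUUAGGUCgagcuucauugga
miR850: uAAGAUCCggacuacaacaaag
miR840-3p: uUGUUUAGgucccuuaguuuc
miR841a-5p: uACGAGCCacuugaaacugaa
miR841b-5p: uACGAGCCacuggaaacugaa
miR825: uUCUCAAGaaggugcaugaac
miR823: uGGGUGGUgaucauauaagau
miR773a: uUUGCUUCcagcuuuugucuc
miR780.1: uCUAGCAGcuguugagcaggu
miR780.2: uUCUUCGUgaauaucuggcau
Among these 15, miR841a-5p and miR841b-5p were the 2 with a seed in common. All 90 names matched a RefSeq mature miRNA. Uridine was the first base of 64 of the 90 (71.1%), against 52.5% of the 337 other mature miRNAs, and 73 of the 90 were annotated as 21 bases long. miR781a and miR781b are identical, as are miR854a to miR854e, so reads could not be told apart within these sets and their separate values are uncertain.

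Several of the hairpins lie close together or inside other genes. MIR842 and MIR846 are neighbours on the plus strand of chromosome 1, with miR842 at chr1:22577194-22577214, miR846-5p at chr1:22577426-22577446 and miR846-3p at chr1:22577662-22577682. miR850 (chr4:7845756-7845777) and miR863-5p (chr4:7846644-7846664) both overlap AT4G13495, a non-coding RNA gene of the same strand. miR863-3p (chr4:7846835-7846855), from the same hairpin as miR863-5p, lies outside that gene. miR840-3p (chr2:771385-771405) lies on the strand of the protein-coding gene AT2G02750 and within its annotated span. miR780.2 (chr4:8504145-8504165) and miR780.1 (chr4:8504166-8504186) are adjoining pieces of a single hairpin.

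The wild-type embryo libraries held 1.67 M to 52.4 M genome-matching reads, the dcl1-5 libraries 7.51 M to 30.2 M, leaf 0.687 M and floral bud 2.89 M. Levels are reads of 20 to 24 bases per 1000000 genome-matching reads (RPM). Replicates were pools of different embryos collected on different days, and no pair of replicates was identical. Early embryos yield little RNA, and these miRNAs were also measured in a dilution series of bent cotyledon RNA, with 1 library of differing depth per amount. Of the members due at least 10 reads at the mean bent cotyledon level, 1 of 20 was at 0 reads in the 50 ng library, 5 of 14 in the 5 ng library, 1 of 4 in the 1 ng library and 3 of 5 in the 0.5 ng library. miR775 was due 116 reads in the 5 ng library and had 0. The labels do not give the RNA amount behind each embryo library. By the paper, 1 to 5 ng of total RNA can be obtained from early embryos. It also compared the dilution series with libraries from more than 50 ng of bent cotyledon RNA, an amount that no sample label gives. The part of input amount in low or absent values at the early stages, and in rises from them to bent cotyledon, was not tested. By the paper's methods, globular and earlier samples were amplified over a higher range of PCR cycles than early heart and later samples. The methods also except the bent cotyledon samples from the RNA pools shared between assays. Stage cannot be told apart from these differences in comparisons that cross them.

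In wild-type embryos 80 of the 90 miRNAs (88.9%) had at least 1 read, compared with 269 of the 337 others (79.8%). Most were rare. A mean of at least 1 RPM in some stage was reached by 26 of 90 (28.9%), against 138 of 337 others (40.9%), and the median of the highest stage mean was 0.302 RPM against 0.384 RPM. Only 7 reached 10 RPM and 2 reached 100 RPM, the 2 arms of miR846. miR774a, both arms of miR774b, miR782, miR832-3p and miR870-5p had 0 reads in all 33 sRNA-seq libraries. Over the wild-type embryos, 0 reads allow a level of up to 0.00719 RPM (3 of 417 M reads, counting error only).

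More of these miRNAs were seen at later stages. Libraries held on average 11 of the 90 at the preglobular stage, then 22.3, 23.3, 37.3, 47.7, 50.7, 53 and 54.7 at the following stages up to mature green. After thinning each library to 1.67 M genome-matching reads the means were 10, 15, 19.3, 21.7, 25.7, 28, 29.3 and 27, in the same order. The rise was therefore smaller at equal depth, and mature green no longer had the highest mean. Detection by stage and the stage of the highest mean were counted for the members only. Whether other mature miRNAs had the same course was not tested. Of the 26 miRNAs above 1 RPM, 13 had their highest stage mean at late torpedo, 6 at bent cotyledon and 3 at mature green. miR829-5p and miR859 had theirs at the preglobular stage, from 1 library (5.36 RPM) and from 2 libraries (2.92 and 7.80 RPM) there, miR843 at early heart and miR862-3p at early torpedo.

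**Figure D1:**
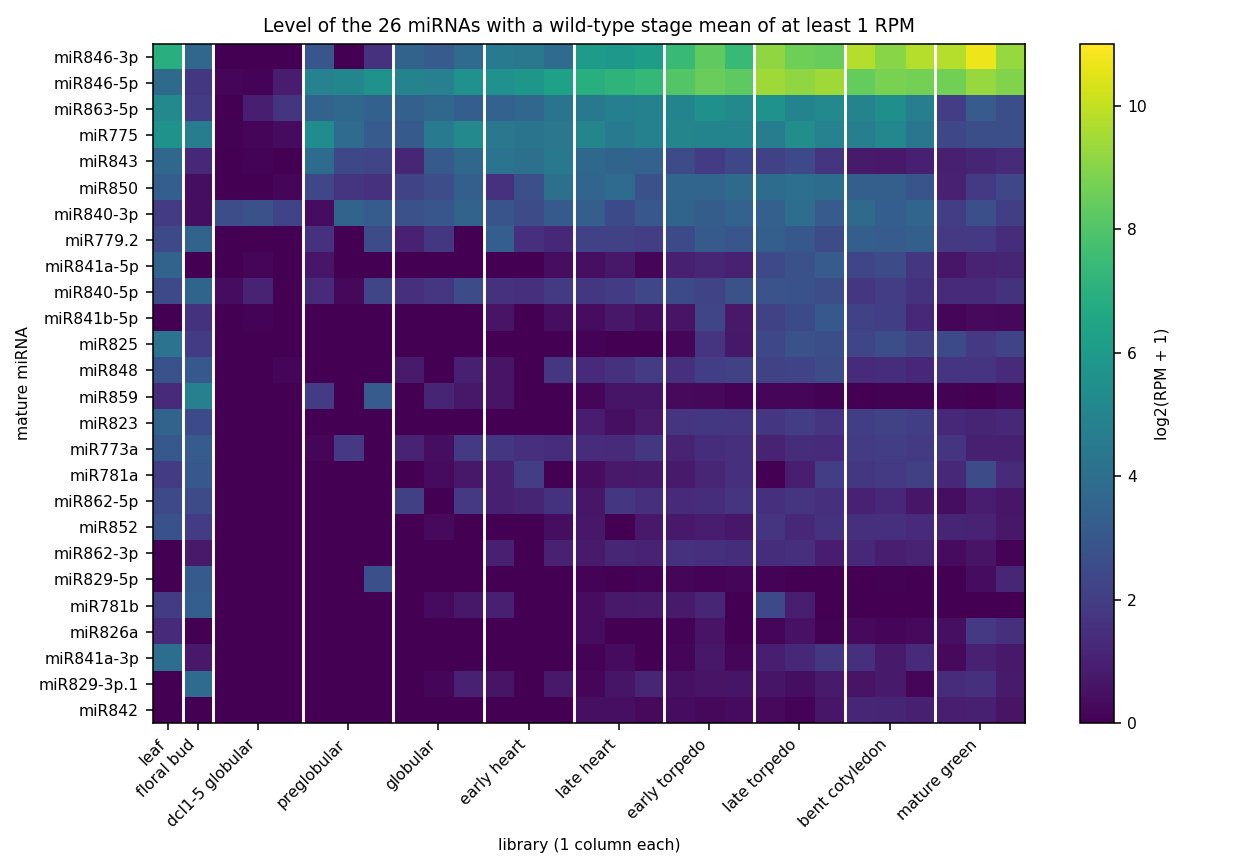
Heat map of the 26 miRNAs with a wild-type stage mean of at least 1 RPM. Rows are miRNAs, columns are single libraries grouped by white lines, and color is log2(RPM + 1). Both arms of miR846 brighten from early to late stages, and the 3 dcl1-5 columns are dark except in the row of miR840-3p and a few weak cells.

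The summed level of the 90 miRNAs was 98.0 ± 19.2 RPM at the preglobular stage (SD, n = 3), 110 ± 39.5 RPM at globular, 161 ± 24.97 RPM at early heart, 306 ± 20.996 RPM at late heart, 658 ± 141 RPM at early torpedo, 1244 ± 159 RPM at late torpedo, 1280 ± 157 RPM at bent cotyledon and 1602 ± 646 RPM at mature green. Their share of the level of all mature miRNAs was 0.370% at preglobular and 4.42% at mature green. The 2 arms of miR846 made up much of this sum, with 40.1% of it at preglobular, 66.6% at late heart, 90.2% at bent cotyledon and 97.1% at mature green. Without miR846, the sum was 59.0 ± 16.3 RPM at preglobular, 151 ± 8.79 RPM at late torpedo and 44.2 ± 8.23 RPM at mature green. The remaining 88 miRNAs were thus together highest at late torpedo, and their ranges at mature green (36.4 to 52.8 RPM) and preglobular (44.3 to 76.5 RPM) overlapped.

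Whether a miRNA differed over the 8 stages was tested with edgeR's quasi-likelihood F test over all 164 mature miRNAs with a stage mean of at least 1 RPM. Of the 26 members tested, 20 (76.9%) passed an adjusted p of 0.05, and 21 had an unadjusted p under 0.05. Among all 164 miRNAs, 68.3% passed. Leaving out single libraries gave 16 to 22 members, and miR775, miR781b, miR829-5p and miR862-5p were among those whose call was lost. miR840-3p, miR840-5p, miR773a, miR779.2, miR781a and miR829-3p.1 did not pass, with adjusted p of 0.0684 to 0.712 in this edgeR test.

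miR846 was the most abundant of these miRNAs in embryos. Its known targets are genes of jacalin-like lectins, carbohydrate-binding proteins with roles in defense. miR846-3p had 6.72, 0 and 1.95 RPM in the preglobular libraries, 10.2, 7.85 and 13.4 RPM at globular, 21.2, 20.4 and 13.2 RPM at early heart, 64.6, 56.6 and 68.8 RPM at late heart and 167, 316 and 176 RPM at early torpedo. Late torpedo embryos had 579, 378 and 348 RPM, bent cotyledon embryos 871, 521 and 887 RPM, and mature green embryos 886, 1666 and 625 RPM. From early heart to late torpedo each stage lay above the one before without overlap, while early heart and globular overlapped, with nearest values of 13.2 and 13.4 RPM. Bent cotyledon embryos had 72.3 times the globular mean (edgeR log2 change 6.17 ± 1.02 SE, adjusted p = 4.48e-05).

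The 5p arm followed a flatter course. miR846-5p had 28.0, 31.7 and 48.8 RPM in preglobular and 29.4, 26.4 and 46.1 RPM in globular embryos. At early heart it had 46.2, 56.4 and 77.4 RPM, at late heart 123, 142 and 158 RPM, and at early torpedo 267, 362 and 306 RPM. Late torpedo embryos had 695, 584 and 695 RPM, bent cotyledon embryos 333, 440 and 419 RPM, and mature green embryos 400, 622 and 475 RPM. Its highest stage was thus late torpedo, before that of the 3p arm. Bent cotyledon embryos had 11.7 times the globular mean (log2 change 3.55 ± 0.34, edgeR adjusted p = 2.02e-07).

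The balance between the arms therefore differed by stage. The 3p arm was on average 7.72% of both arms at preglobular, 23.7% at globular, 24.2% at early heart, 31.1% at late heart, 40.5% at early torpedo, 39.4% at late torpedo, 64.8% at bent cotyledon and 66.2% at mature green. Mature green embryos had 68.9, 72.8 and 56.8%, against 25.8, 22.9 and 22.6% in globular embryos, with no overlap (difference 42.4 percentage points; the exact permutation test, two-sided, gave p = 0.1, and 3 against 3 libraries cannot give less). Mature green and bent cotyledon embryos differed by 1.35 percentage points (exact permutation p = 0.7). The same share also differed widely within the bent cotyledon dilution series, though not in the order of the RNA amounts, and was 1.14% in the 0.5 ng, 30.4% in the 1 ng, 8.61% in the 5 ng and 52.5% in the 50 ng library. There miR846-3p had 4.88, 99.1, 37.2 and 298 RPM in that order, while miR846-5p had 424, 227, 395 and 270 RPM. The part of input amount in the stage pattern of the 3p arm was not tested. miR842 from the neighboring hairpin stayed far lower than either arm, with 0 reads up to early heart and 1.24, 1.18 and 0.934 RPM in bent cotyledon embryos.

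**Figure D2:**
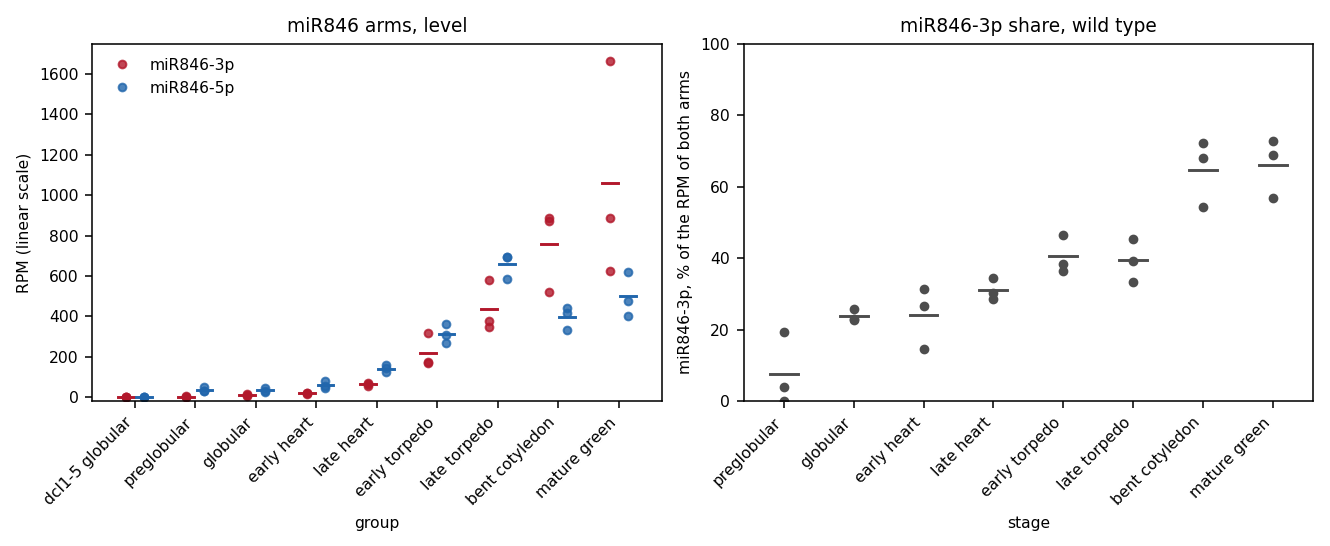
miR846 arms by group. Left, RPM (linear scale) of miR846-3p and miR846-5p, points being libraries and bars group means; right, the 3p arm as a percentage of both arms in wild-type embryos, with means of 7.72% at preglobular and 66.2% at mature green. The 3p arm lies below the 5p arm up to late torpedo and above it at the last stages.

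Over the 8 stage means, the miRNA whose order was most like that of miR846-3p among the 164 was miR5645f (Spearman rho 1), followed by miR824-5p (0.994). For miR846-5p it was miR5012 (0.970), and for miR863-5p it was miR168a-5p (0.976), with miR850 at 0.952. These are descriptions over 8 means of the same libraries.

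Between bent cotyledon and globular embryos, 13 of the 26 members tested rose and 2 fell (57.7%), where 52.4% of all 164 miRNAs changed, 42.1% higher and 10.4% lower. Without adjustment, 17 members had p under 0.05. The median log2 change was 2.34 for the members and 1.81 for all miRNAs tested. The split of 13 higher and 2 lower depended on scaling, with 10 and 4 under TMM, 10 and 3 when scaled to total miRNA reads and 10 and 6 under DESeq2, where the median of all miRNAs was 0.72, 0.83 and 0.51. Several members were at 0 reads in all globular libraries and above 1 RPM later, among them miR823, known to target the DNA methyltransferase gene CMT3, and the 5p arms of miR841a and miR841b.

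miR823 had 0 reads at the preglobular, globular and early heart stages. It had 0.791, 0.354 and 0.758 RPM in late heart, 2.15, 2.41 and 2.34 RPM in early torpedo, and 2.31, 2.98 and 2.12 RPM in late torpedo embryos. At bent cotyledon it had 3.12, 3.35 and 3.06 RPM, and at mature green 1.33, 1.20 and 1.32 RPM. The replicates were close at each stage, and bent cotyledon embryos were the highest group. Against the floor of 3 reads over the globular libraries (0.0349 RPM), bent cotyledon embryos were at least 91.0-fold higher (edgeR adjusted p = 2.1e-07). In the 5 ng dilution library miR823 had 19 reads where 14.4 were due.

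miR825 was also absent up to early heart and reached 4.23, 5.58 and 5.29 RPM in late torpedo and 3.96, 5.25 and 3.37 RPM in bent cotyledon embryos, at least 120-fold higher than the globular floor (edgeR adjusted p = 2.99e-05). Its level in mature green embryos, 4.63, 2.50 and 3.57 RPM, overlapped with bent cotyledon. Unlike miR823, it was at 0 in the 5 ng dilution library, where 19.1 reads were due. The miR841 arms were likewise at 0 in globular embryos. miR841a-5p had 3.88, 4.69 and 2.39 RPM in bent cotyledon embryos and miR841b-5p 3.32, 3.09 and 1.35 RPM, against 0 in the globular libraries (at least 105-fold and at least 74.1-fold higher, edgeR adjusted p = 5.1e-06 and 1.55e-05). miR841a-3p was at least 38.4-fold higher and miR842 at least 32.1-fold higher. In the 5 ng dilution library miR841a-5p had 15 reads where 16.6 were due, and miR841b-5p had 0 where 11.7 were due.

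Other risers had globular reads. miR862-3p was 99.9-fold higher in bent cotyledon embryos by pooled reads (74 reads against 1, 95% counting interval 17.4 to 3997), miR852 22.3-fold and miR863-5p 3.23-fold (edgeR adjusted p = 2.87e-05, 0.0039 and 0.00184). The rise of miR863-5p did not pass under TMM, total miRNA or DESeq2 scaling (adjusted p = 0.39, 0.208 and 0.53). miR779.2 and miR826a passed by a narrow margin (edgeR adjusted p = 0.0486 and 0.0399) and lost their calls on leaving out single libraries (0.0525 to 0.104 and 0.0508 to 0.117).

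miR843 had the opposite course. It had 17.3, 15.6 and 20.6 RPM in early heart, 12.3, 10.8 and 9.85 RPM in late heart, 4.65, 2.91 and 4.29 RPM in early torpedo and 3.31, 4.39 and 2.26 RPM in late torpedo embryos. Bent cotyledon embryos had 0.761, 0.670 and 0.934 RPM, against 1.30, 7.76 and 12.2 RPM in globular embryos, without overlap (log2 change -3.16 ± 0.64, edgeR adjusted p = 0.000386). The globular replicates themselves spread widely. miR859, whose known targets are F-box genes, also fell, with 0, 0.0515 and 0.0519 RPM in bent cotyledon and 0, 1.21 and 0.649 RPM in globular embryos. The groups overlapped at 0, and the edgeR call (adjusted p = 0.032) was lost without any single bent cotyledon library or globular replicate 2 (0.0635 to 0.103).

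From bent cotyledon to mature green, 5 of the 26 members fell and none rose (19.2%), where 17.1% of all miRNAs changed, 14.6% lower and 2.44% higher. Without adjustment, 10 members had p under 0.05. The median log2 change was -0.65 for the members and -0.56 for all. The count fell to 3 without mature green replicate 1 or 3 or any single bent cotyledon replicate, and was 4 without mature green replicate 2. DESeq2, with its own size factors, called 4 higher and 6 lower.

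miR863-5p had 2.98, 8.02 and 5.21 RPM in mature green embryos, against 29.6, 43.4 and 24.9 RPM in bent cotyledon embryos, 6.04-fold lower (log2 change -2.59 ± 0.42, edgeR adjusted p = 0.000371). The groups were far apart. miR775, known to target a galactosyltransferase gene, had 4.15, 5.18 and 5.29 RPM against 24.8, 32.7 and 19.2 RPM, 5.25-fold lower (log2 change -2.39 ± 0.56, edgeR adjusted p = 0.00642). It had varied little between early heart and bent cotyledon, with 18.01 to 42.8 RPM over all libraries of those stages. miR841b-5p had 0.147, 0.206 and 0.179 RPM against 3.32, 3.09 and 1.35 RPM, 14.6-fold lower (edgeR adjusted p = 0.00445), while miR841a-5p with the same seed was 3.78-fold lower and did not pass (0.0844). Whether these paralogs differed was not tested. The calls of miR823 (2.48-fold lower, edgeR adjusted p = 0.0416) and miR862-3p (4.34-fold lower, 0.0457) were those lost when libraries were left out, and that of miR775 was lost under TMM (0.0522). Neither arm of miR846 passed in this comparison (edgeR adjusted p = 0.469 for 5p and 0.745 for 3p).

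DCL1 dependence was examined by comparing dcl1-5 with wild-type globular embryos. The 90 miRNAs summed to 7.69 ± 1.69 RPM in dcl1-5 and 110 ± 39.5 RPM in wild-type globular embryos (SD, n = 3 each). Of 11 members tested, 7 were lower and none higher (63.6%), where 68.8% of all 93 miRNAs tested were lower. Without adjustment, 8 members had p under 0.05. The median log2 change was -7.43 for the members and -6.23 for all. This loss was read relative to genome-matching reads. Under TMM, total miRNA and DESeq2 scaling, which center on the miRNAs themselves, the median of all miRNAs was -1.03, 0.09 and -1.07, and the members split into 1 higher and 0 lower, 1 and 0, and 1 and 1.

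miR846-3p had 0 reads in each dcl1-5 library, against 10.2, 7.85 and 13.4 RPM in wild-type globular embryos, at least 182-fold lower (floor of 3 reads over the dcl1-5 libraries, 0.0576 RPM; edgeR adjusted p = 0.00312). miR846-5p had 0.133, 0.0695 and 0.799 RPM in dcl1-5 and 29.4, 26.4 and 46.1 RPM in wild type, 102-fold lower (log2 change -6.74 ± 1.33, edgeR adjusted p = 0.00451). miR775 had 0.0332, 0.139 and 0.266 RPM in dcl1-5 and 7.56, 22.6 and 35.7 RPM in wild type, 150-fold lower (log2 change -7.31 ± 1.35, edgeR adjusted p = 0.00356). For these 3 the genotypes did not overlap.

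miR843 and miR850 were left with 1 read each in the dcl1-5 libraries, against 793 and 618 in wild type, pooled ratios of wild type over dcl1-5 of 480 (95% counting interval 86.0 to 18999) and 374 (67.0 to 14812; edgeR adjusted p = 0.00655 and 0.00765). miR773a, known to target the DNA methyltransferase gene MET2, was at 0 in dcl1-5, at least 23.9-fold lower (edgeR adjusted p = 0.0134). miR862-5p was at 0 in dcl1-5 and at 3.28, 0 and 2.52 RPM in wild type, at least 33.6-fold lower. Its call (edgeR adjusted p = 0.0446) was lost without any single dcl1-5 library or globular replicate 1 (0.0867 to 0.108). miR779.2 was at 0 in dcl1-5 and at 0.991, 2.41 and 0 RPM in wild type, and did not pass (edgeR adjusted p = 0.0672), though it passed without globular replicate 3 (0.00108) and with all 27 embryo libraries in a single fit (0.00303).

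The other 3 members had residual reads. miR840-3p had 5.01, 5.63 and 3.60 RPM in dcl1-5 and 5.57, 6.72 and 10.2 RPM in wild-type globular embryos, 63.3% of the wild-type mean, with the highest dcl1-5 value just above the lowest wild-type value. It was lower relative to genome-matching reads without passing the test (log2 change -0.66 ± 0.77, edgeR adjusted p = 0.442) but higher under TMM (4.58, adjusted p = 0.0443), total miRNA (5.88, 0.016) and DESeq2 scaling (4.74, 7.42e-17). Of the 368 reads of all 90 miRNAs in dcl1-5, 259 (70.3%) were miR840-3p, and 253 of these were 22 bases long. Its share of the summed level was 85.9, 61.6 and 44.4% in the dcl1-5 libraries, against 7.14, 6.84 and 6.59% in wild-type globular libraries. miR840-5p had 0.298, 1.11 and 0 RPM in dcl1-5 and 1.86, 2.36 and 4.85 RPM in wild type (log2 change -2.65 ± 1.40, edgeR adjusted p = 0.121).

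miR863-5p had 0, 0.903 and 2.26 RPM in dcl1-5 and 9.48, 12.1 and 8.80 RPM in wild type, without overlap (log2 change -3.28 ± 1.67, edgeR adjusted p = 0.115). It passed without dcl1-5 replicate 1 (0.0365), with limma (0.00327 and 0.0215 with pseudocounts of 1 and 0.1) and with all 27 embryo libraries in a single fit (0.00456). miR840-5p passed with limma (0.0224 and 0.0357) and in the fit of 27 libraries (0.00956). For miR840-5p and miR863-5p too the sign turned positive under TMM, total miRNA and DESeq2 scaling. Over the miRNAs at 1 RPM or more in wild-type globular embryos, the median level left in dcl1-5 was 0.666% for 11 members and 1.67% for 81 others. More than 10% was left of 3 members and 16 others, and more than 50% of 1 member and 2 others.

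**Figure D3:**
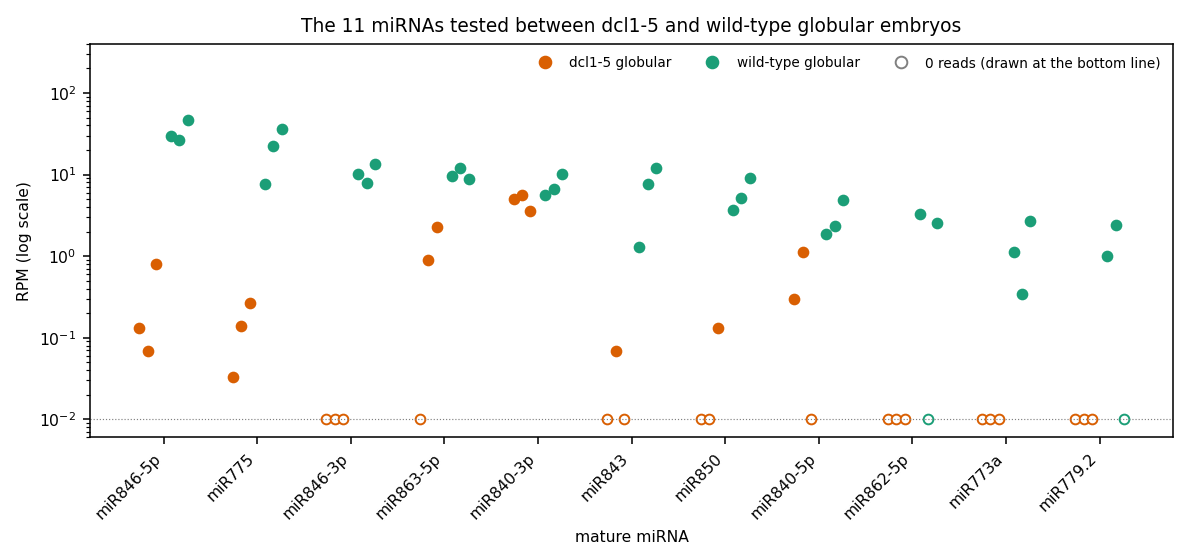
RPM (log scale) of the 11 miRNAs tested between dcl1-5 and wild-type globular embryos, points being libraries and open circles on the dotted line libraries with 0 reads. miR840-3p is the one with dcl1-5 reads that reach the wild-type range, at 3.60 to 5.63 RPM, while miR862-5p and miR779.2 meet it at 0 reads.

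Read length, which reflects the Dicer that cut the RNA and the position of the cuts, was described for the 51 members with at least 20 wild-type embryo reads. The most frequent length was 21 bases in 34, 22 bases in 8, 24 bases in 4, 20 bases in 3 and 23 bases in 2. A mode of 24 bases was thus found for 7.84% of members, compared with 20.7% of 203 others. miR846-3p was 96.2% 21-base and miR843 93.1% 21-base reads. miR846-5p was mainly 20 bases (75.4%), 1 base shorter than annotated. Pooled over all stages, miR773a (93.7%), miR840-3p (73.7%), miR840-5p (58.3%) and miR850 (56.6%) were mainly 22 bases. This length is linked in plants to the start of secondary small interfering RNA production. At preglobular, miR840-3p was instead mainly 23 bases (75 of 81 reads), and miR850 was most often 21 bases (45.8% of 59 reads). miR773a and miR840-5p were mainly 22 bases there too. miR775 was spread, with 33.6% of 20, 18.3% of 21, 32.2% of 22, 10.8% of 23 and 5.18% of 24 bases. Both members with a 23-base mode, miR835-5p and miR835-3p, rested on globular replicate 3, which held all of their 49 and 43 reads of that length. Without this library, an alternative added after the data were seen, 0 members had a 23-base and 5 a 24-base mode.

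The members with a 24-base mode were miR863-5p (68.0% of 8841 reads, 95% Wilson interval 67.0 to 69.0%), miR844-5p (91.9% of 62), miR854b (72.3% of 90.4 assigned reads) and miR836 (57.9% of 95). miR836 is annotated at 24 bases, and the others at 21. Intervals of this kind cover counting error only, since the reads carry no molecular identifiers. In miR863-5p both lengths were seen at most stages. Its 24-base reads were at 8.56 RPM in preglobular, 9.59 in globular, 8.55 in early heart, 18.01 in late heart, 26.5 in early torpedo, 23.2 in late torpedo, 19.8 in bent cotyledon and, lowest, 3.54 RPM at mature green, as means of 3. Its 21-base reads were at 0.876, 0.479, 3.98, 5.45, 8.83, 12.8, 10.2 and 1.48 RPM in the same order. The preglobular value of the 21-base form came from replicate 1 and the globular value from replicate 2, the other replicates of both stages having 0. In dcl1-5 embryos 28 of its 30 reads were 24 bases and 0 were 21 bases long. Restricted to reads of 20 to 22 bases, the fall of miR863-5p in mature green embryos had a similar size but did not pass (log2 change -2.77, edgeR adjusted p = 0.168).

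**Figure D4:**
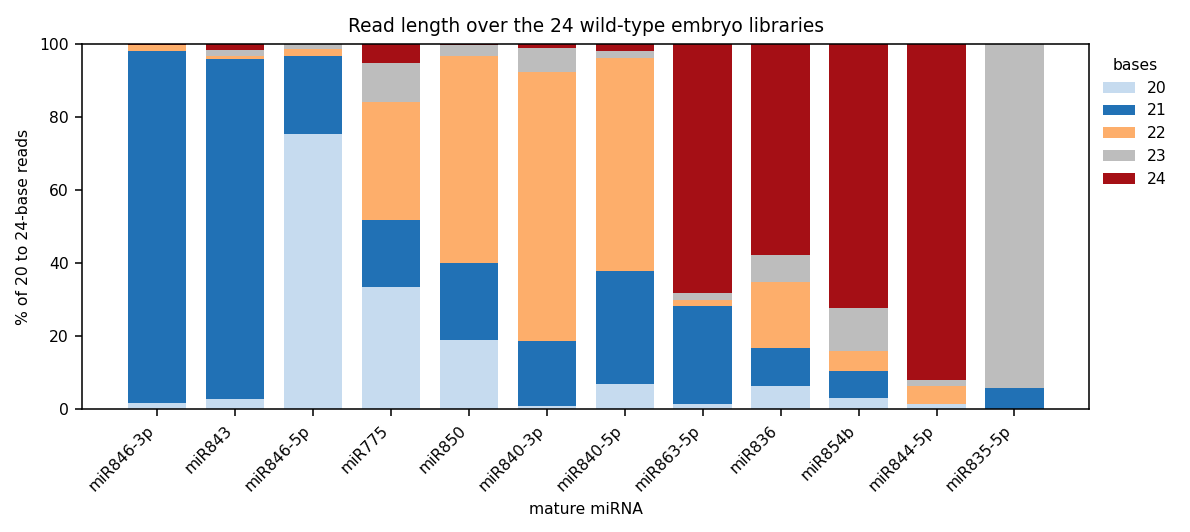
Read length of 12 miRNAs as a percentage of their 20 to 24-base reads, pooled over the wild-type embryo libraries. Bars run from mainly 21 bases (miR846-3p, 96.2%) over mainly 22 bases (miR840-3p, 73.7%) to mainly 24 bases (miR844-5p, 91.9%) and 23 bases (miR835-5p, 94.2%), the last from globular replicate 3 alone.

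Leaf and floral bud were each a single library, so their values carry exact Poisson intervals for counting error and no test. In floral bud 59 of the 90 miRNAs were seen (65.6%, against 64.1% of the 337 others) and 16 reached 10 RPM, led by the 2 miRNAs of the MIR780 hairpin. miR780.1, known to target the cation/proton exchanger gene CHX18, had 1093 RPM in floral bud (95% interval 1055 to 1132), and miR780.2 had 953 RPM (918 to 989), against stage means of at most 0.367 and 0.634 RPM in embryos. Together they made up 84.9% of the reads of these 90 miRNAs in floral bud. miR856 (34.9 RPM) and miR867 (32.9 RPM) had reads in floral bud and 0 in all wild-type embryo libraries. miR771 (29.1 RPM), miR859 (26.99 RPM), miR839-5p (22.8 RPM), miR851-5p (17.6 RPM), miR829-3p.1 (13.5 RPM), miR833a-5p (12.5 RPM), miR868-5p (11.8 RPM), miR851-3p (11.4 RPM) and miR840-5p (10.7 RPM) were likewise above every embryo library by their lower bounds. miR775 (24.2 RPM), miR779.2 (10.4 RPM) and miR846-3p (11.4 RPM) had intervals that overlapped the embryo range. Counted over all 90, 23 had an interval above every embryo library.

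In leaf 39 of the 90 were seen (43.3%, against 50.1% of the others) and 13 reached 10 RPM. miR846-3p had 119 RPM in leaf (94.9 to 148) and miR846-5p 13.1 RPM (5.99 to 24.9), a 3p share of 90.1%, and the interval of the 5p arm lay below every wild-type embryo library. miR822-5p had 45.1 RPM in leaf (30.6 to 64.02), against at most 0.207 RPM in any embryo library. miR847, known to target the auxin response repressor gene IAA28, had 21.8 RPM in leaf (12.2 to 36.0) and 0 reads in all wild-type embryo libraries. miR825 (17.5 RPM), miR841a-3p (14.5 RPM), miR780.2 (11.6 RPM), miR833b (10.2 RPM) and miR823 (10.2 RPM) had lower bounds above every embryo library. miR775 (48.0 RPM), miR863-5p (34.9 RPM), miR843 (11.6 RPM) and miR841a-5p (10.2 RPM) had intervals that overlapped the embryo range. In all, 12 members lay above every embryo library in leaf, and 4 members, miR847, miR856, miR867 and miR868-3p, were seen in leaf or floral bud but in no wild-type embryo library. Apart from detection, these counts in leaf and floral bud were made for the members only. Whether they differ from those of other mature miRNAs was not tested.

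Cleavage was examined by nanoPARE, which sequences RNA 5′ ends, after the EndCut test of predicted target sites. That test covered miRNAs at 1 RPM or more in an embryo stage, and 24 members had listed sites. Of their 378 listed sites, 17 (4.50%), belonging to 12 members, had an adjusted p under 0.05 in at least 1 library, compared with 8.13% of the 1735 sites of all miRNAs. None of the 17 passed in dcl1-5 or xrn4-5 libraries, where 6 and 76 sites of other miRNAs did. Those passing numbered 5 in preglobular, 2 in globular, 1 in early heart, 7 in late heart, 6 in early torpedo, 2 in late torpedo, 5 in bent cotyledon and 1 in mature green embryos. In at least 2 replicates of a group, 4 of the 17 passed. Both counts hold 1 miR773a site that was listed, with the same values, under both AT5G64550 and AT5G64552 and counted for each.

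The sites of miR823, miR841b-5p and miR846-3p, whose levels are described above, are given from RefSeq TAIR10.1 on the sense strand, 5′ to 3′. Capitals mark bases in Watson-Crick pairs with the miRNA, and lowercase letters mark mismatches or G:U pairs.
miR823 site in CMT3, chr1:26249567-26249587, minus strand, coding sequence: gTCTTATATGATCAtCACCCt
miR841b-5p site in HTA8, coding sequence across a splice junction: TTCAGTTTCCAGTGGgTCGTA
miR846-3p site in AT1G61230, chr1:22579561-22579581, plus strand, coding sequence: cATTCAAGCACTTCAATTCAA
The sites were placed by pairing with the RefSeq transcripts, at the deposited pairing score for each. The base opposite miRNA position 10 was transcript base 470 in AT1G61230, where the deposited tables give 469, but 2139 in CMT3 and 226 in HTA8, where they give 2036 and 270, so the place of these last sites rests on the score.
miR823 and CMT3, which encodes a methyltransferase of CHG sites, were the pair found most often, listed in 13 libraries and passing in 7. At the CMT3 site nanoPARE reads were at 0, 0.383 and 0 RPM in preglobular and 0, 0.603 and 0.0673 RPM in globular embryos. At early heart they were at 0.365, 0 and 0.125 RPM, at late heart at 0.144, 0.930 and 0.449 RPM, and at early torpedo at 0.626, 0.402 and 0.368 RPM. Late torpedo had 0.224, 0 and 0 RPM, bent cotyledon 0, 0.212 and 0 RPM, and mature green 0 in all libraries. Signal was therefore highest at late heart and early torpedo, and reads were present at stages before miR823 itself was detected. The dcl1-5 libraries had 0, 0 and 0 RPM, against 0, 0.603 and 0.0673 RPM in wild-type globular embryos, a difference that did not pass an exact permutation test (p = 0.4), and globular embryos had no miR823 reads in either genotype.

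**Figure D5:**
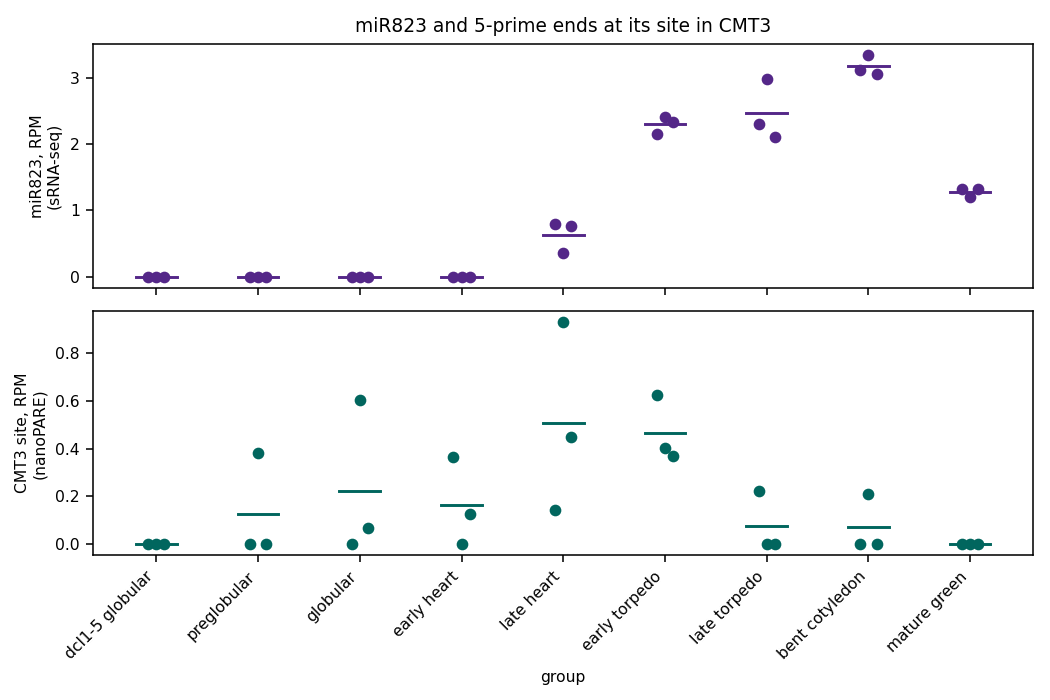
miR823 level in sRNA-seq (top) and nanoPARE reads at its site in CMT3 (bottom), both in RPM, points being libraries and bars means. miR823 first appears at late heart and peaks at bent cotyledon (3.06 to 3.35 RPM), while the site has reads at earlier stages and 0 in mature green and dcl1-5 embryos.

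miR773a had the most sites. A site listed for both AT5G64550 and the overlapping AT5G64552 passed in 4 libraries, with 1.94 and 0.617 RPM in 2 late heart libraries, and a site in AT2G25760 passed in 3. Its site in MET2 (AT4G14140), a relative of the main CG methyltransferase gene, passed in the 2 libraries that listed it, with 0.188 RPM in a preglobular and 0.243 RPM in a late heart library. miR841b-5p at HTA8, which encodes a histone H2A.Z, passed in 3 libraries, at preglobular, early torpedo and bent cotyledon, with levels of at most 0.416 RPM. miR775 at the galactosyltransferase gene AT1G53290 passed in 2, with at most 0.727 RPM. The other sites passed in 1 library each, among them miR846-3p at AT1G61230, a jacalin lectin gene, with 0.407 RPM in a mature green library. They also included miR842 at the lectin gene AT1G60130 and at AT3G63400, miR825 at AT3G06210 and at CKB2, miR779.2 at AT5G03440, miR781a at the NAC gene NAP (AT1G69490), miR852 at ILL1 and miR859 at AT2G18780.

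A set of 19 pairs of members and targets known from the literature was looked up. It held no pair of miR846, miR842 or miR859, whose passing sites are named above. Of these 19 pairs, 3 were listed and all 3 passed, miR823 with CMT3, miR773a with MET2 and miR775 with AT1G53290. The 16 others were not listed in any library, including pairs of miR780, miR847, miR840, miR844, miR778, miR827, miR828 and miR857. miR827 and miR828 had stage means of at most 0.0744 and 0.0277 RPM. miR773b, miR778, miR780, miR844, miR847, miR857 and miR863-3p were also below 1 RPM in every stage mean. Pairs of all these miRNAs were thus outside the EndCut test, and their absence cannot speak to cleavage. Of the unlisted pairs, those of miR840 and miR826 had a miRNA that reached 1 RPM. Passing sites and stages made 29 combinations, with the miR773a site of AT5G64550 and AT5G64552 counted for each gene. In 5 combinations the miRNA was at 0 reads, among them miR823 in globular and miR841b-5p, miR842 and miR852 in preglobular embryos. In 10 combinations it was below 1 RPM.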

How the data were processed

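The authors trimmed sRNA-seq reads with Cutadapt, aligned 18- to 30-base reads to TAIR10 with STAR without mismatches, reassigned multimapping reads, and counted reads overlapping mature miRNAs with BEDtools (versions not given in the sources used here). The deposited tables hold expected counts by read length and RPM, normalized by the authors to genome-matching reads. The nanoPARE tables deposited by the authors hold RPM at each site, a pairing score, an adjusted p-value from EndCut, and a fold over background, which was not used. Expected counts were rounded and tested with edgeR 4.0.16 quasi-likelihood fits. Library size was genome-matching reads without TMM, miRNAs needed a mean of 1 RPM in a group, and p-values were adjusted by Benjamini-Hochberg over all miRNAs passing. dcl1-5 and globular libraries were fitted alone, and stages over all wild-type embryo libraries. Alternatives used limma 3.58.1, DESeq2 1.42.0, other scalings, filters, read lengths and left-out libraries. Fits were tested on simulated data with 30 miRNAs changed. The dcl1-5 fit recovered 0 of the 30 at 4-fold, 5 at 16-fold and 18 at 64-fold. At 4-fold, 6 were recovered for bent cotyledon against globular, 11 for mature green against bent cotyledon and 5 over the 8 stages. A member that did not pass may therefore still have changed. Members and lists were chosen with earlier results of these data known. Named were the 10 with the highest stage mean, the largest changes per comparison, and those with a 24-base mode, a passing site, 10 RPM in leaf or floral bud, 20 dcl1-5 reads or no reads at all. The dcl1-5 mRNA-seq tables were not used here. A cleavage site that passed is not reported here by name.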

Additional observations from a re-analysis of the deposited data

Results flagged for a closer look

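Reads of 25 to 30 bases, which no level above includes, were found for 4 of these miRNAs in wild-type embryos above the 3 reads that a count of 0 allows. Over the wild-type embryo libraries there were 79 such reads of miR775, 33 of miR863-5p, 31 of miR846-5p and 25 of miR859, and dcl1-5 embryos had 0 for each.

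The dilution libraries of bent cotyledon RNA entered no comparison between groups. More than 3 reads were found for 27 of the 90 miRNAs in the 50 ng library, for 11 in the 5 ng library, for 5 in the 1 ng library and for 5 in the 0.5 ng library. Their depths were 11.4 M, 4.54 M, 0.515 M and 1.03 M genome-matching reads in that order.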

How the results depend on the processing

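Counts of called members were recomputed under 58 alternatives, of which 35 were within 1.5 times the value given and 23 were not. For dcl1-5 against wild-type globular embryos, where 7 were called, the count was 1 under TMM, 1 when scaled to total miRNA reads, 2 with DESeq2, 3 with a filter of 10 RPM and 14 with all 27 embryo libraries in a single fit. In these scalings miR840-3p (4.58, 5.88 and 4.74 on the log2 scale under TMM, total miRNA and DESeq2), miR840-5p (2.70, 4.20 and 2.96) and miR863-5p (1.92, 2.91 and 1.93) changed sign. For bent cotyledon against globular the 10 RPM filter, with 7 members tested, gave 4 in place of 15. For mature green against bent cotyledon, with 5 called, TMM gave 2, limma with a pseudocount of 1 gave 10, DESeq2 10, no filter 3, the 10 RPM filter 3, reads of 20 to 22 bases 3, reads of 21 bases 2 and the 6 libraries of both stages alone 10. Over the 8 stages, with 20 called, no filter gave 31, the 10 RPM filter 6 and 21-base reads 13. Detection of 80 members became 26 at a stage mean of 1 RPM. The 4 members with a 24-base mode became 1 with at least 100 reads and 2 in mature green embryos alone. The 17 cleavage sites became 10 at an adjusted p under 0.01 and 4 in at least 2 replicates of a group. Except where named, the cause of these differences was not tested.

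Leaving out a library gave 6 to 7 members for dcl1-5, 12 to 14 for bent cotyledon against globular, 3 to 4 for mature green against bent cotyledon, and 16 to 22 over the stages. Leaving out all libraries of a replicate number gave 75 to 78 detected, 4 to 5 with a 24-base mode and 12 to 15 sites.

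Same-numbered replicates did not deviate together (correlations of -0.546 to 0.311 over 9 pairs, 4 of them above 0.1), so the numbers do not pair the samples. With a replicate block the counts were 6, 15, 3 and 18 in the order of dcl1-5, bent cotyledon, mature green and all stages. For dcl1-5 it lost miR773a and miR862-5p (adjusted p = 0.248 and 0.21) and gained miR863-5p (0.0441).

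Depth limits the rare members most. In the early heart and preglobular libraries of 1.67 M to 10.3 M reads, 3 reads are 0.292 to 1.80 RPM, and leaf and floral bud have no replicates.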
